A study of Mus musculus with 5 samples.

Results

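The nuclei described here were chosen by RNA for high Foxp2 and Hs3st4, under the name of deep-layer excitatory neurons, and number 1706 of the 28142 nuclei in 5 libraries from mouse hippocampus. Of these, 657 fell in sub-clusters set aside for many nuclei with RNA of both sexes or for raised glial or vascular genes. The other 1049 are called the retained nuclei below. Among the 27681 nuclei with at least 1000 detected genes, each gene was scaled to a z score of its logarithmic level, and a nucleus was a member when the mean z score of Foxp2, Hs3st4, Rai14, Sulf1 and Cobll1 was at least 1. That score also had to exceed the score of Tshz2, Vwc2l, Npsr1, Atp10b and Bmper and the score of Rorb, Cux2, Pdzrn3, Kcnh5 and Efna5, and the score of the inhibitory genes Gad1, Gad2 and Slc32a1 had to stay below 0.5. The levels of these genes in the members are therefore a description and carry no test. A pair of comparison classes was formed by exchanging the marker sets: 1936 Tshz2 nuclei, led by the second set, and 1387 Rorb nuclei, led by the third.

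The study profiled RNA and chromatin accessibility of the same nuclei (single-nucleus multiome). Its 5 groups are wild type mice, 5xFAD mice, and 5xFAD mice with a knockout of MAGL in astrocytes, in neurons or globally, and each group is 1 library, all with the same batch name. The 5xFAD line carries mutant human transgenes of familial Alzheimer's disease, among them amyloid precursor protein, driven by the mouse Thy1 promoter and is a model of amyloid deposition, so the controls of the knockouts carry these transgenes too. MAGL, encoded by Mgll, is monoacylglycerol lipase, which breaks down the endocannabinoid 2-arachidonoylglycerol. How the knockouts were made, which exons they remove, and the age, sex and number of mice are not given in the sources used here. Where 5 values are given below, they follow the order wild type, 5xFAD, astrocyte, neuron and global MAGL-KO.

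Foxp2 is a forkhead transcription factor found in the deep layers of the cortex, above all in the corticothalamic neurons of layer 6, which send axons back to the thalamus. Layer 6b neurons lie beneath them, at the border to the white matter, and are known for Ccn2, Cplx3 and Nxph4. Hs3st4 adds a sulfate group to the 3-O position of heparan sulfate, a sugar chain on cell surface proteins such as glypicans and syndecans, and Sulf1 removes 6-O sulfates from the same chains outside the cell. Such neurons belong to the cortex that adjoins the hippocampus, and the labels do not say how the tissue was cut.

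The promoter of Hs3st4, which gives these nuclei 1 of their names, is shown with promoters of 4 other genes whose regions of open chromatin over the start were higher in the members than in both other classes. The 4 others (Dock9 and 3 gene models) were chosen after their values were seen, because their regions had low p-values. A further window, shared by Dmrt2 and 2610016A17Rik (adjusted p = 5.99e-08 and 2.22e-07), holds no match to the motifs and is not printed. The same is true of the windows of Drd1, whose region was higher than in both classes, and of Rai14, whose region was higher than in Tshz2 nuclei alone. Sequences are from RefSeq on GRCm38.p6, read 5′ to 3′ towards the start site, and hold the part of the 250 bases before it that lies in the region: Hs3st4 at chr7:123982578-123982827 (plus strand), Dock9 at chr14:121738930-121739153 (minus strand), Gm39471 at chr11:114484620-114484859 (minus strand), Gm41414 at chr16:5431144-5431393 (plus strand) and Gm40395 at chr6:112424512-112424672 (minus strand). Capitals mark matches to CAGATGG, an E-box of the type bound by NEUROD factors. Foxp2, Sulf1 and Ccn2 were not matched in the sequence table.
Hs3st4: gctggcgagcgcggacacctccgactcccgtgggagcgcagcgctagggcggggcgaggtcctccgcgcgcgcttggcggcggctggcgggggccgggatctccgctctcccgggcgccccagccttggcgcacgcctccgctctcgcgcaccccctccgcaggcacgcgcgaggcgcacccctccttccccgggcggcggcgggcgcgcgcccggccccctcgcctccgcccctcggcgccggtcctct
Dock9: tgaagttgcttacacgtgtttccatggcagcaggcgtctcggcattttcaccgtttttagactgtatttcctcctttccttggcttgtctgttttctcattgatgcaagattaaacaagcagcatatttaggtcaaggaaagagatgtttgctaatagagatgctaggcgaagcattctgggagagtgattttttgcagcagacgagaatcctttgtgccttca
Gm39471: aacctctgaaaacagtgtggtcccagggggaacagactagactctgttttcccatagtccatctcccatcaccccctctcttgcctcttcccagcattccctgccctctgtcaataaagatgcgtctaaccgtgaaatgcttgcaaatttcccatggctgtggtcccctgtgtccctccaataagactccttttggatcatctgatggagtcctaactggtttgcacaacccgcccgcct
Gm41414: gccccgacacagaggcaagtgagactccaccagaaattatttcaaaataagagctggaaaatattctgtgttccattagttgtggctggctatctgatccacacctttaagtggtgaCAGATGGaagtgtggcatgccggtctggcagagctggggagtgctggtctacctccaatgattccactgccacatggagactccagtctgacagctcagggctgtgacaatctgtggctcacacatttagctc
Gm40395: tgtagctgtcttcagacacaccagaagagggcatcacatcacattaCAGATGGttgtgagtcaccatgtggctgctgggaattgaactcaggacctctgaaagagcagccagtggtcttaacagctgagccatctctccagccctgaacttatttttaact
The Hs3st4 window is 82.0% G and C and holds none of the 3 motifs that were searched on both strands, the other 2 being the T-box core GGTGTGA and the forkhead motif TGTTTAC.

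Members numbered 287, 282, 390, 268 and 479, or 5.56%, 5.50%, 6.45%, 6.68% and 6.52% of the nuclei with at least 1000 genes. The 95% Clopper-Pearson intervals of these shares were [4.95, 6.22], [4.89, 6.16], [5.85, 7.10], [5.93, 7.50] and [5.97, 7.11], and like all intervals below they cover counting error only. The interval of every library overlapped that of every other. With 1 library in each group, no test between groups was possible, and no difference between libraries below has a replicate check. Member scores ran from 1.00 to 4.40 with a median of 1.86, and 574 members had a UMI (a unique molecular identifier, that is 1 counted RNA molecule) of all 5 genes. Just outside the threshold, 129 nuclei scored from 0.9 to 1.0, of which 59.7% had a UMI of Foxp2 and 69.0% of Hs3st4, and just inside, 97 nuclei scored from 1.0 to 1.1, with 61.9% and 79.4%. The medians of UMIs per member were 15974, 14591.5, 14059.5, 17467 and 16165, and the members of a library held 5555422 to 11406355 UMIs and 3843324 to 6339022 transposase cut sites in peaks. Libraries shared 442 barcodes, and 2 of these were members in both libraries.

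The members were not 1 kind of cell. Clustered again among themselves, they fell into 15 sub-clusters, and 7 of these, with 657 nuclei (38.5%), were set aside. Xist is transcribed in females and Y-linked genes in males, and each library held nuclei of both kinds. Of the 7 sub-clusters, 4 held many nuclei with both kinds of RNA: 55.8% of 215 nuclei in sub-cluster 2, 52.6% of 152 in sub-cluster 4, 38.0% of 92 in sub-cluster 8 and 33.3% of 27 in sub-cluster 14. Sub-cluster 4 also held Prox1, a dentate granule cell factor, at 119.9 CPM (counts per 1000000 UMIs of the sub-cluster). Sub-clusters 2, 4 and 8 were led by genes such as Foxp2, Rai14, Sulf1 and Cobll1. The rule chose the nuclei by these genes, so their lead says nothing about the name. Sub-cluster 14 also held oligodendrocyte genes among its leading ones. The 3 others were led by genes of other cell types. Sub-cluster 10 (84 nuclei) was oligodendrocyte precursor-like, with Pdgfra at 567 CPM and Hs3st4 at 5.61. Sub-cluster 11 (74 nuclei) was led by Ttr at 7285 CPM, Otx2os1, Ptgds and Enpp2, and stayed unnamed. Sub-cluster 15 (13 nuclei) was microglia-like. Nuclei with both kinds of sex-linked RNA made up 39.6% of the nuclei set aside and 2.96% of the 1049 retained ones, whose median was 13991 UMIs against 26058. Values below are for all members unless the retained nuclei are named, and the retained nuclei are a choice made after the data were seen. No nuclei were set aside from the Tshz2 and Rorb nuclei, of which 14.3% and 13.8% had both kinds of RNA. Every comparison of retained nuclei with these classes is therefore uneven in this respect.

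Retained nuclei numbered 171, 195, 248, 166 and 269, or 3.31%, 3.81%, 4.10%, 4.14% and 3.66% of nuclei. Slc17a7, the vesicular glutamate transporter of cortical neurons, stood at 184, 179, 235, 236 and 184 CPM in them. Against all other nuclei of the libraries, Slc17a7 (median log2 ratio 0.20) and Sv2b (0.83), a synaptic vesicle protein, were higher in all 5 libraries, and Camk2a (-0.99), a synaptic kinase, and Nrgn (-0.85), a calmodulin-binding protein, were lower in all 5. The 6 listed genes of excitatory neurons had a median of -0.01. Gad1, which makes the transmitter GABA, was used by the rule and is given as a description: 0.716 to 2.05 CPM in retained nuclei and 39.9 to 49.9 CPM in all other nuclei. Prox1 was at 0 to 1.17 CPM in retained nuclei and at 66.9 to 84.4 CPM in all other nuclei. Of the dentate granule genes with at least 200 UMIs, 4 of 4 were lower in the retained nuclei than in each comparison class in all 5 libraries. In all members 0 of 5 were, with medians of -0.11 against Tshz2 nuclei and 0.15 against Rorb nuclei. Nuclei were set aside from the members alone, so the retained values are no even comparison, and the part of this step was not tested.

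**Figure D1:**
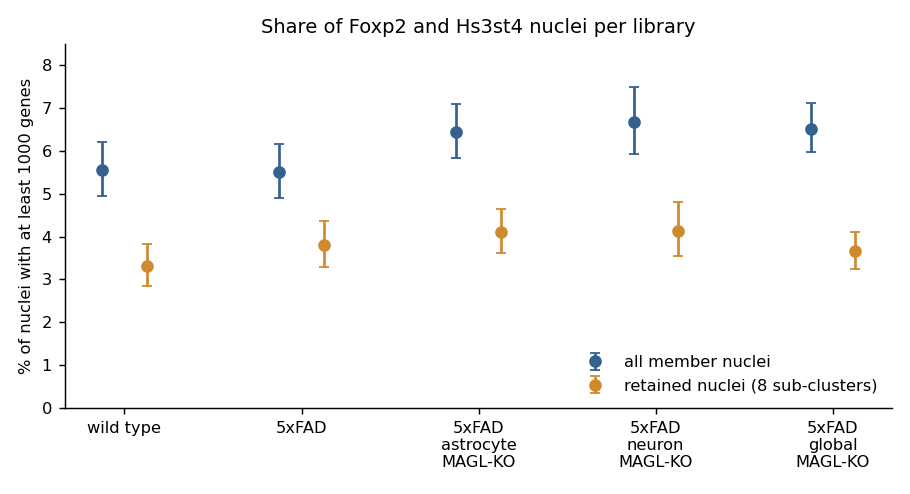
Share of nuclei with at least 1000 genes (y axis, percent) in each library (x axis): blue points are all Foxp2 and Hs3st4 nuclei, orange points the retained ones, and bars are 95% Clopper-Pearson intervals. Blue points lie between 5.50% and 6.68% and orange points between 3.31% and 4.14%, with overlapping intervals within each colour.

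The 8 retained sub-clusters differed in their genes. Since the clusters were made from the same RNA, these values describe them and test nothing. Sub-cluster 1 (302 nuclei) was led by Cobll1 (480.5 CPM), Dkk2, Lpar1 and Brinp3, with Foxp2 at 288 CPM and Ccn2 at 0. Sub-cluster 3 (158 nuclei) was led by Cobll1, Rmst and Hs3st2 (291 CPM), a further heparan sulfate 3-O-sulfotransferase, and held Rorb at 283 CPM against 28.3 CPM in other nuclei. These were the most numerous of the retained nuclei, and 1 of the 6 layer 6b genes was at least 1 log2 unit above other nuclei in each.

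Sub-cluster 5 (148 nuclei) was layer 6b-like. Ccn2, a secreted matrix protein that marks layer 6b, was at 179 CPM there against 1.06 CPM in other nuclei, and in the 7 other retained sub-clusters it reached 31.9 CPM at most. Moxd1 stood at 159.6 CPM, Nxph4 at 19.8, Cplx3 at 16.9 and the dopamine receptor gene Drd1 at 29.9 CPM. All 6 fixed layer 6b markers were raised in it. Its share of retained nuclei was 8.19%, 9.23%, 15.3%, 14.5% and 20.1% by library.

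Sub-cluster 9 (91 nuclei) was corticothalamic layer 6-like, with 6 of 10 fixed markers at least 1 log2 unit above other nuclei and a mean of 1.41 over the 10. Sub-cluster 7 also had 6 of 10, with a mean of 1.20, and sub-clusters 1, 3 and 6 had 5 of 10. Of the 17 immediate early genes, which neurons switch on with activity, 9 were raised as far in sub-cluster 9, 2 in sub-cluster 3 and 0 in the 6 other retained sub-clusters. It held Foxp2 at 948 CPM, against 21.3 CPM in other nuclei, and Syt6, a synaptotagmin of layer 6, at 129 CPM against 6.49. Cobll1, a gene of the selection rule, was at 2.76 CPM in it, below the 17.0 CPM of other nuclei. Homer1, an activity-dependent synaptic scaffold gene, was at 1824 CPM, and the 7 other retained sub-clusters ranged from 166 to 624 CPM.

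Sub-cluster 7 (96 nuclei) held Foxp2 at 681 CPM together with Rorb at 506 CPM and Hs3st5 at 744 CPM. Sub-cluster 12 (64 nuclei) held Foxp2 at 850.0 CPM, Drd1 at 33.0 CPM and Tshz2, a gene of the second marker set, at 2449.8 CPM, with Sulf1 at 12.5 CPM. Sub-cluster 6 (134 nuclei) was led by the potassium channel gene Kcnh8 (450.4 CPM) and held Nxph1, a neurexophilin, at 762 CPM. Its 10 leading genes included Vwc2l of the second marker set (1577 CPM), Rorb of the third (355 CPM) and Cntn6, a gene of the subiculum list (1662 CPM), and only Rai14 of the rule's own 5 genes. Of the subiculum genes 3 of 6 and of the corticothalamic genes 5 of 10 were at least 1 log2 unit above other nuclei, so its markers were mixed and it has no cell type name. Sub-cluster 13 (56 nuclei) held Sema3c at 176 CPM, the serotonin receptor gene Htr2a at 131 CPM and the neuromedin B receptor gene Nmbr at 53.7 CPM. It was uneven over the libraries, with 4, 2, 10, 8 and 32 nuclei, and sub-cluster 6 took 14.6%, 19.0%, 9.68%, 12% and 10.4% of retained nuclei.

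**Figure D2:**
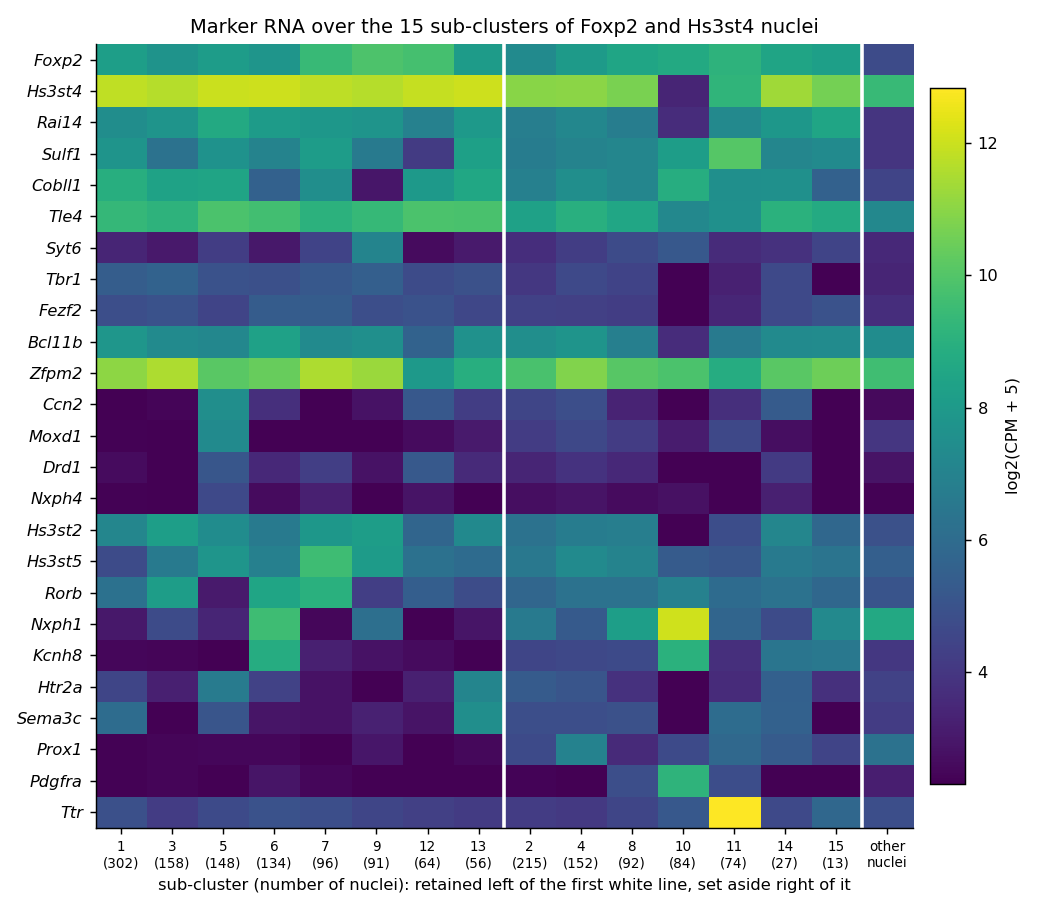
Heat map of log2(CPM + 5) for 25 genes (rows) in the 15 sub-clusters of Foxp2 and Hs3st4 nuclei and in all other nuclei (columns, with the number of nuclei), the retained sub-clusters standing left of the first white line. Hs3st4 is high in most columns and low in sub-cluster 10, Ccn2 and Moxd1 peak in sub-cluster 5, and Syt6 peaks in sub-cluster 9.

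Among the genes of the rule, Foxp2 stood at 337, 392, 272, 286 and 252 CPM in all members and at 467, 400.3, 348, 393 and 346 in the retained ones, against 23.1 to 54.0 CPM in Tshz2 nuclei and 18.6 to 52.7 in Rorb nuclei. Hs3st4 stood at 2587, 2855, 2811, 2752 and 2564 CPM (3579 to 3869.6 in the retained nuclei), against 653 to 953 in Tshz2 nuclei and 335 to 529 in Rorb nuclei. Sulf1 stood at 157, 151, 172, 170.5 and 157 CPM (126 to 203 in the retained nuclei), against 4.45 to 14.3 and 7.48 to 14.9 CPM. The lowest member library lay above the highest library of either class for these 3 genes, which the rule used.

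Of 10 genes known for corticothalamic neurons of layer 6, 8 were higher in the members than in Tshz2 nuclei in all 5 libraries, where 2487 of all 12521 genes (19.9%) were. Against Rorb nuclei 9 of 10 were, where 2703 of 12144 genes (22.3%) were. The list had a median log2 ratio of 0.59 against Tshz2 nuclei, where that of all genes was 0.02, and of 1.37 against Rorb nuclei, where that of all genes was 0.04. All log2 ratios of RNA are of CPM plus 5. By the stricter rule of at least 1 log2 unit in all 5 libraries, 2 of 10 were higher than in Tshz2 nuclei and 4 of 10 than in Rorb nuclei. Of all genes 71 (0.567%) were that much higher than in Tshz2 nuclei and 77 (0.615%) lower, and against Rorb nuclei 85 (0.700%) were higher and 116 (0.955%) lower. Lower in all 5 libraries by any size were 15.6% and 14.6% of all genes. RNA chose the members, so these counts carry no test. In the retained nuclei the list had 9 of 10 genes higher than in Tshz2 nuclei in all 5 libraries (18.7% of all genes) and 8 of 9 higher than in Rorb nuclei (21.8%). The list had 0 genes lower in all 5, where 18.9% and 18.5% of all genes were. By the stricter rule 110 of 11504 genes (0.956%) were higher and 271 (2.36%) lower than in Tshz2 nuclei, and 131 of 10894 (1.20%) higher and 321 (2.95%) lower than in Rorb nuclei.

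Tle4, a corepressor that marks corticothalamic neurons, was at 459, 548, 553, 518 and 529 CPM in the members, at 628 to 766 in the retained nuclei, at 175 to 224 in Tshz2 nuclei and at 112 to 145 in Rorb nuclei. Tbr1, a T-box factor needed for layer 6 identity, was at 22.5, 26.6, 24.3, 23.3 and 16.0 CPM (27.2 to 36.4 retained), with 7.09 to 9.89 and 7.23 to 9.69 CPM in the other classes. Zfpm2, a zinc finger cofactor, was at 1501, 1717, 1406, 1364 and 1214 CPM (1549 to 2047 retained), with 449.8 to 580.4 and 365 to 502 CPM. For each of these 3 genes the lowest member library lay above the highest library of either class. Ntsr1, a neurotensin receptor whose Cre line is used to reach corticothalamic neurons, did not separate in this way: it was at 5.09, 6.30, 7.47, 8.48 and 5.70 CPM in members and at 3.37 to 5.72 and 2.35 to 9.13 CPM in Tshz2 and Rorb nuclei.

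Of the 6 layer 6b genes, 4 had at least 200 UMIs in each comparison, and 4 of 4 were higher in the members in all 5 libraries (19.9% and 22.3% of all genes), 2 and 1 of them by at least 1 log2 unit in each library, with medians of 1.41 against Tshz2 nuclei and 1.44 against Rorb nuclei. Ccn2 was at 19.2, 19.8, 42.9, 24.7 and 24.3 CPM in members, 22.6 to 60.6 in retained nuclei, 0.945 to 2.59 in Tshz2 nuclei and 0.438 to 4.57 in Rorb nuclei. Drd1 was at 5.09, 6.66, 9.07, 12.1 and 8.33 CPM (5.92 to 16.1 retained), against 2.08 to 3.15 and 0.219 to 0.734 CPM. The ranges of members and of both classes did not overlap for either gene, and the astrocyte MAGL-KO library was the highest for Ccn2 and the neuron MAGL-KO library for Drd1. The 6 upper-layer genes had a median of -0.48 against Tshz2 nuclei and -1.12 against Rorb nuclei. Markers of claustrum and layer 6 intratelencephalic neurons, the other deep-layer kind, had a median of -0.14 against Tshz2 nuclei, and -1.79 in the retained nuclei.

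Other genes were named for the size of their ratio. Cdh18, a cadherin, was at 1599, 1975, 1888, 1718 and 2052 CPM in the members, 331 to 451 in Tshz2 nuclei and 186 to 312 in Rorb nuclei. Htr1f, a serotonin receptor gene, was at 314 to 359 CPM against 76.0 to 110.0 and 36.5 to 58.8 CPM. Sdk2, an adhesion protein of synaptic layers, was at 223 to 279.7 CPM against 41.8 to 49.9 and 37.2 to 59.6 CPM. Grik3, a kainate receptor subunit, was at 302 to 362 CPM against 134 to 168 and 50.4 to 95.3 CPM. Each of the 4 was higher in the members of every library. The median log2 ratios against Tshz2 nuclei were 2.82 for Bmpr1b, 2.62 for Col8a1, 2.14 for Arhgap25, 2.12 for Ipcef1 and 2.10 for Ror2. Against Rorb nuclei they were 2.97 for Cntnap4, 2.47 for Dlc1, 2.44 for Lpar1, 2.39 for Sema3e, 2.33 for Pcsk5 and 2.22 for Plcxd3. Ttr (2.93 against Tshz2 nuclei) and Otx2os1 (2.17) also ranked among the highest, and both lead sub-cluster 11, which was set aside. Ttr was at 84.7 to 352 CPM in all members and 15.7 to 25.5 CPM in the retained nuclei.

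Genes lower in the members included Cdh20, another cadherin, at 47.1 to 76.1 CPM against 415 to 558 in Tshz2 nuclei and 296 to 469 in Rorb nuclei. Mef2c, an activity-regulated transcription factor, was at 186 to 223 CPM against 444 to 610.2 and 903 to 1134 CPM. Other low ratios against Tshz2 nuclei were -2.25 for Prrg1, -2.21 for Gpc6 and -2.04 for Unc13c. Against Rorb nuclei they were -2.33 for Lama4, -2.25 for Col26a1 and -2.23 for Pparg. Glial RNA differed between the classes as well. Oligodendrocyte genes had a median of -1.69 against Tshz2 nuclei, lower in all 5 libraries for 5 of 6 genes, and of 0.15 against Rorb nuclei. In the retained nuclei these medians were -2.55 and -1.15, the latter over 3 genes of which 3 were lower in all 5 libraries. Since nuclei were set aside from the members alone, the retained medians in this paragraph are no even comparison of glial RNA. Astrocyte genes had a median of 0.50 against Tshz2 nuclei, over 3 genes of which 1 was higher and 1 lower in all 5 libraries, and of -1.06 against Rorb nuclei, lower in all 5 libraries for 4 of 5, with -0.07 over 2 genes and -1.59 over 5 in the retained nuclei. Genes of oligodendrocyte precursors were higher in the members than in Tshz2 nuclei in all 5 libraries for 4 of 4, with a median of 0.72, and had a median of 0.27 against Rorb nuclei. In the retained nuclei, without the precursor-like sub-cluster 10, their medians were -0.32 over 2 genes and -0.82 over 3. Their part in the comparisons between classes was not tested.

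The 3-O-sulfotransferases of heparan sulfate differed among themselves. Besides Hs3st4, Hs3st2 was at 119, 143, 110.0, 122 and 114 CPM in the members, 19.6 to 29.0 in Tshz2 nuclei and 21.5 to 40.6 in Rorb nuclei. Hs3st5 was at 139, 142, 139.9, 100.2 and 139 CPM, against 36.7 to 45.8 and 55.1 to 77.2 CPM. Both were higher in the members of every library. Hs3st1, which makes the antithrombin-binding site of heparan sulfate, was the reverse: 9.19, 11.5, 9.47, 7.38 and 7.54 CPM in members, 1.91 to 4.62 in the retained nuclei, 21.6 to 25.8 in Tshz2 nuclei and 21.3 to 40.4 in Rorb nuclei.

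The same held for the enzymes that add 6-O sulfates. Hs6st3 was at 1014, 871, 628, 895 and 1035 CPM in the members and at 288 to 470.3 in the retained nuclei, against 3219.7 to 3673 in Tshz2 nuclei and 3096 to 3497 in Rorb nuclei. Hs6st2 was at 191, 217, 183, 196 and 178 CPM in the members, against 124 to 163 and 92.8 to 128 CPM. So Hs6st3 was lower and Hs6st2 higher in the members of all 5 libraries. Ext1, a polymerase that extends the chain, was at 864 to 955 CPM against 572 to 605 and 712 to 849 CPM. Gpc6, a glypican, was at 173, 289, 251, 341 and 173 CPM against 993 to 1441 and 798 to 1246 CPM. Ndst4, an N-sulfotransferase, was at 0.716 to 4.31 CPM in the retained nuclei and at 49.3 to 118 in all members, with 80.3 to 108 and 34.5 to 67.7 CPM in the other classes. Sulf2, the sister of Sulf1, was at 64.8 to 74.6 CPM, with 62.7 to 68.0 in Tshz2 nuclei and 21.2 to 36.2 in Rorb nuclei. Of 21 synthesis and editing genes with at least 200 UMIs, 7 were higher and 5 lower in all 5 libraries against Tshz2 nuclei, where 19.9% of all genes were higher and 15.6% lower. Against Rorb nuclei 8 were higher and 6 lower, where 22.3% and 14.6% of all genes were. The higher ones include Hs3st4 and Sulf1, which the rule made higher. The medians of the list, -0.02 and 0.08, lay near those of all genes.

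**Figure D3:**
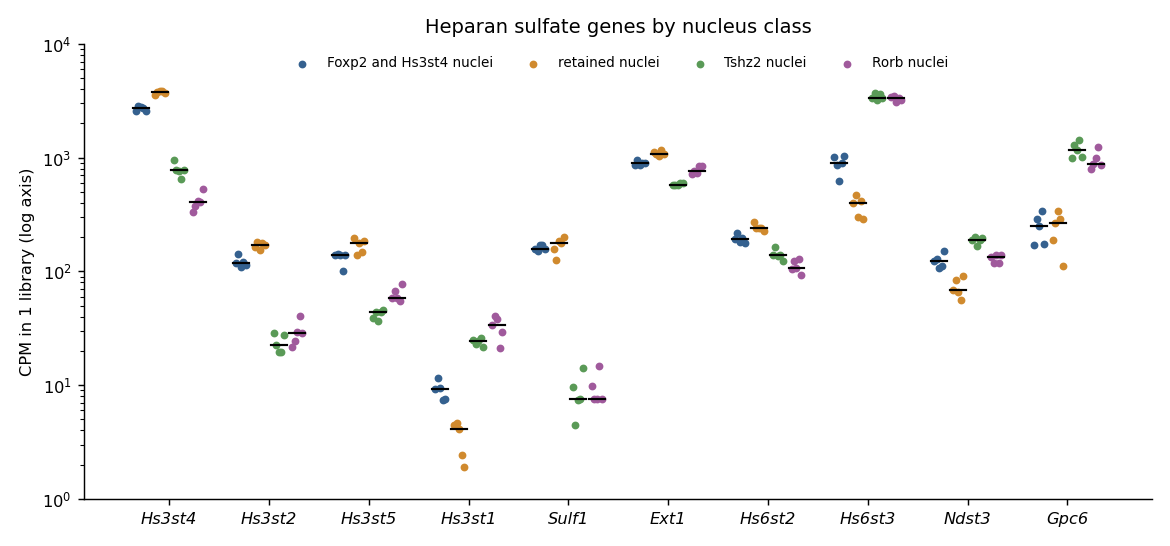
RNA level in CPM (log axis) of 10 heparan sulfate genes (x axis) in all Foxp2 and Hs3st4 nuclei, the retained ones, Tshz2 nuclei and Rorb nuclei; each point is 1 library and each black line a median over the 5 libraries. Levels are to be compared within a gene: Hs3st4, Hs3st2, Hs3st5 and Sulf1 lie above the other classes and Hs3st1, Hs6st3 and Gpc6 below them.

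Among partners and relatives of Foxp2, 8 of 9 listed genes had at least 200 UMIs, and the median was -0.03 against Tshz2 nuclei and 0.07 against Rorb nuclei. Foxp1, the nearest relative, was at 633 to 729 CPM in the members, 596 to 651 in Tshz2 nuclei and 513 to 585 in Rorb nuclei. Cntnap2, an adhesion gene known as a target of FOXP2, was at 1943 to 2501 CPM against 2865 to 3664 and 2438 to 3200.4 CPM. Cntnap2 was lower in the members of every library.

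Chromatin accessibility was not used to choose the nuclei, so it was tested. Cut sites in 103361 regions were summed for members, Tshz2 nuclei and Rorb nuclei of each library and compared with edgeR's quasi-likelihood test with the library as a block, with Benjamini-Hochberg adjustment over all regions. A region was called at an adjusted p below 0.05. Against Tshz2 nuclei 6885 regions (6.66%) were higher in the members and 9933 (9.61%) lower, and against Rorb nuclei 8563 (8.28%) were higher and 11833 (11.4%) lower. Regions called in the same direction against both classes numbered 3774 higher (3.65%) and 6319 lower (6.11%). With the retained nuclei in place of all members, 82119 regions were tested: 22444 (27.3%) were called against Tshz2 nuclei, 8730 of them higher and 13714 lower, and 24714 (30.1%) against Rorb nuclei, 9851 higher and 14863 lower. Tshz2 and Rorb nuclei were kept whole in that fit, so nuclei were set aside on the side of the members alone. The 3 classes of a library share its library preparation, and the 5 libraries are of different genotypes, so the spread in this test is that of class differences over the 5 libraries. Median cut sites per nucleus averaged 10145.6 in members and 8790.0 in Tshz2 nuclei, higher in 5 of 5 libraries (exact two-sided permutation p = 0.063, the smallest that 5 pairs allow), and 10871.1 in Rorb nuclei (higher in 1 of 5, exact p = 0.125).

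The share of regions called was also counted by place, without a test of the difference between places. Within 1 kb of a start, 3.50% were higher and 5.10% lower than in Tshz2 nuclei, and between genes the shares were 8.48% and 11.2%. Introns had 6.99% and 10.6%, and exons 6.03% and 10.3%.

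Most regions at the 5 genes of the member score were not called. Of 56 regions over or within 2 kb of them, 17 (30.4%) were higher and 0 lower than in Tshz2 nuclei, and 22 (39.3%) higher and 0 lower than in Rorb nuclei, against 6.66% and 8.28% of all regions. Hs3st4 had 11 and 15 of its 23 regions higher. Foxp2 had 1 and 2 of 8, Sulf1 2 and 2 of 6, Cobll1 1 and 3 of 9, and Rai14 2 and 0 of 10.

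The region at the start of Sulf1 (chr1:12692464-12693661, mm10) was at 13.1, 12.5, 10.2, 10.2 and 10.1 CPM in members, at 0.489 to 4.52 in Tshz2 nuclei and at 1.35 to 5.20 in Rorb nuclei. Its log2 differences were 1.96 ± 0.31 (SE; adjusted p = 1.53e-06) and 1.61 ± 0.32 (adjusted p = 7.77e-05). The region at the start of Foxp2 (chr6:14900503-14901282) was at 21.4, 22.4, 20.1, 21.6 and 20.5 CPM, against 9.86 to 14.5 and 8.26 to 12.7 CPM, with differences of 0.80 ± 0.18 (adjusted p = 0.00046) and 1.05 ± 0.19 (adjusted p = 1.57e-05). For both starts the members of all 5 libraries lay above every library of both classes. With retained nuclei the differences were 2.29 and 1.89 at Sulf1 and 1.23 and 1.48 at Foxp2.

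The region over the Hs3st4 start (chr7:123982312-123983211), which contains the sequence printed above, differed less. It was at 25.3, 21.2, 17.8, 20.2 and 26.2 CPM in members, 16.9, 14.7, 12.3, 18.7 and 16.7 in Tshz2 nuclei and 11.1, 17.4, 16.4, 13.6 and 19.7 in Rorb nuclei, with differences of 0.48 ± 0.16 (adjusted p = 0.0317) and 0.48 ± 0.17 (adjusted p = 0.0356). The ranges overlapped. The call against Tshz2 nuclei was lost without the wild type, 5xFAD, astrocyte MAGL-KO or global MAGL-KO library (0.44 to 0.47), and that against Rorb nuclei without the wild type, neuron MAGL-KO or global MAGL-KO library (0.33 to 0.50). With retained nuclei the differences at the start were 0.82 and 0.83 (adjusted p = 0.000393 and 0.000508). Larger differences lay in the introns of Hs3st4. The region at chr7:124319153-124320081 was at 13.7, 17.3, 15.0, 13.9 and 17.2 CPM in members, 4.73 to 9.45 in Tshz2 nuclei and 2.43 to 5.23 in Rorb nuclei, with 1.34 ± 0.24 (adjusted p = 1.23e-05) and 2.07 ± 0.27 (adjusted p = 5.81e-09). Another at chr7:124180710-124181651 differed by 0.91 ± 0.27 (adjusted p = 0.0101) and 2.15 ± 0.32 (adjusted p = 1.72e-07). Its call against Tshz2 nuclei was lost without the global MAGL-KO library (0.76). The region at chr7:124237756-124238695 was called against Tshz2 nuclei, at 1.03 ± 0.20 (adjusted p = 8.18e-05), and not against Rorb nuclei, at 0.39 ± 0.20 (adjusted p = 0.175). With retained nuclei these 3 intronic regions differed by 1.76 and 2.49, by 1.65 and 2.90 and by 1.70 and 1.07, and the last was called against Rorb nuclei too (adjusted p = 5.85e-05).

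Corticothalamic genes had 14 of 109 regions (12.8%) higher and 2 lower than in Tshz2 nuclei, and 28 (25.7%) higher and 3 lower than in Rorb nuclei, where 6.66% and 8.28% of all regions were higher. Sox5, a factor of deep-layer identity, had 5 and 10 of 45 regions higher, Zfpm2 4 and 6 of 23, and Bcl11b, also known as Ctip2, 1 and 6 of 13. An intronic region of Sox5 at chr6:144522681-144524176 was at 8.65 to 16.2 CPM in members, 6.11 to 9.73 in Tshz2 nuclei and 0 to 2.43 in Rorb nuclei, with 0.52 ± 0.26 (adjusted p = 0.184) and 2.76 ± 0.34 (adjusted p = 1.31e-09). It separated the members from Rorb nuclei and was not called against Tshz2 nuclei, but with retained nuclei it was called against both (1.19, adjusted p = 0.00081, and 3.47). The start of Tbr1 (chr2:61804063-61804954) was the other way round, with 0.78 ± 0.18 (adjusted p = 0.00105) against Tshz2 nuclei and 0.32 ± 0.18 (adjusted p = 0.233) against Rorb nuclei. At Tle4 the start region (chr19:14597902-14598810) was at 121 to 128 CPM in members, 113 to 154 in Tshz2 nuclei and 124 to 157 in Rorb nuclei, while an intronic region (chr19:14538773-14539717) differed by 2.69 ± 0.46 (adjusted p = 7.06e-06) from Tshz2 nuclei. With retained nuclei the Tbr1 start differed by 0.95 and 0.49 (adjusted p = 0.0704 against Rorb nuclei), and the intronic region of Tle4 by 3.27 and, called there too, by 1.64 (adjusted p = 0.00715).

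Layer 6b genes had 2 of 12 regions higher against each class, where 6.66% and 8.28% of all regions were, a number of regions too small to set apart from that share. The start of Ccn2 (chr10:24595219-24596206) was at 8.25, 12.2, 16.9, 8.11 and 15.2 CPM in members, 2.79 to 9.99 in Tshz2 nuclei and 3.40 to 8.35 in Rorb nuclei. Its differences were 1.06 ± 0.27 (adjusted p = 0.00305) and 0.98 ± 0.28 (adjusted p = 0.00765). Without the astrocyte MAGL-KO library neither call held (0.88 and 0.82), and without the global MAGL-KO library that against Tshz2 nuclei did not hold (0.78). With retained nuclei the differences were 1.53 and 1.43 (adjusted p = 4.21e-05 and 0.000148).

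Regions at heparan sulfate genes were called in both directions. Of 221 regions at synthesis and editing genes, 28 were higher and 29 lower than in Tshz2 nuclei, and 30 higher and 28 lower than in Rorb nuclei, against 6.66% higher and 9.61% lower, and 8.28% and 11.4%, of all regions. Without Hs3st4 and Sulf1, genes of the rule, 15 of 192 regions (7.81%) were higher than in Tshz2 nuclei and 13 (6.77%) than in Rorb nuclei, shares near those of all regions, while 29 (15.1%) and 28 (14.6%) were lower, above the shares of all regions. Hs6st3 alone, with 40 regions, had 16 of these 29 lower regions against Tshz2 nuclei and 12 of these 28 against Rorb nuclei. It had 2 and 1 higher. That the lower shares lay above those of all regions rests on this gene and is no trait of the whole list. Hs3st1 had 2 and 3 of 6 lower, Hs3st2 3 and 2 of 10 higher, and Gpc6 9 and 9 of 35 lower. Of the 2 regions of Hs3st5, whose RNA was higher in the members, 0 were called. Upper-layer genes had 4 of 56 regions higher and 13 lower than in Tshz2 nuclei, and 0 higher and 21 lower than in Rorb nuclei. The 4 higher ones (7.14%) lie near the 6.66% of all regions, and the lower ones (23.2% and 37.5%) stand beside 9.61% and 11.4% of all regions.

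**Figure D4:**
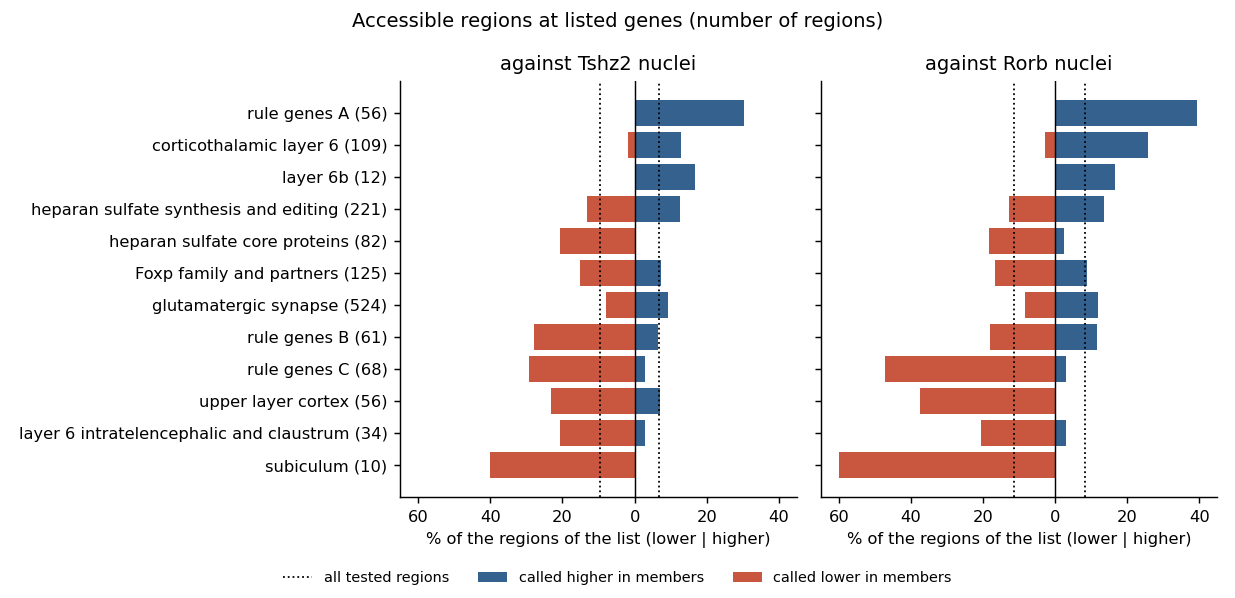
Percent of the accessible regions at each gene list (rows, number of regions in brackets) that were called higher (blue, right) or lower (red, left) in Foxp2 and Hs3st4 nuclei than in Tshz2 nuclei (left panel) and Rorb nuclei (right panel); dotted lines give the percent over all tested regions. The rule genes reach 30.4% and 39.3% higher, and the genes that define the other classes lie mostly to the left.

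Genes that stood out in RNA were then set beside their regions, again without a test. Against Tshz2 nuclei, 64 genes at least 1 log2 unit higher in all 5 libraries had tested regions, and 51 (79.7%) had a region called higher, where 17.8% of all genes did. They held 660 regions, of which 22.7% were called higher, against 5.55% of the regions of all genes. Of the 660, 29 were called lower, where 8.45% of the regions of all genes were. Against Rorb nuclei it was 58 of 79 genes (73.4%, all genes 21.6%). Of the genes lower in RNA, 54 of 67 (80.6%) had a region called lower than in Tshz2 nuclei and 94 of 108 (87.0%) than in Rorb nuclei, where 23.8% and 28.6% of all genes did. The 862 regions of the genes higher against Rorb nuclei included 227 called higher (26.3%) and 43 called lower. Of the regions of all genes 7.06% were called higher and 10.6% lower there. RNA and accessibility come from the same nuclei, the genes were chosen by RNA, and the genes of the rule were left out of these sets.

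Of the regions named for the lowest p-values, all but 1 lay between genes or in introns. A region between genes at chr16:22316084-22317033 was at 26.8, 28.6, 23.6, 18.8 and 21.9 CPM in members, 1.05 to 5.62 in Tshz2 nuclei and 2.77 to 8.26 in Rorb nuclei, a difference from Tshz2 nuclei of 2.83 ± 0.25 (adjusted p = 2.26e-14). Its nearest start is that of Tra2b. One in an exon of Cmya5 (chr13:93091506-93092628) was at 19.5 to 38.5 CPM, against 1.58 to 4.43 and 0.748 to 6.32, with 2.96 ± 0.26 (adjusted p = 2.67e-14) and 3.45 ± 0.29 (adjusted p = 5.32e-15). In both regions no library of the members overlapped another class. The 2 regions between genes with Sdk2 as the nearest start, chr11:114284655-114285613 and chr11:114257666-114258640, lay 218088 and 191107 bases from it. The first was higher by 1.66 ± 0.16 than in Tshz2 nuclei (adjusted p = 2.24e-13). The second was higher by 3.55 ± 0.31 than in Rorb nuclei (adjusted p = 2e-14). Sdk2 RNA was higher in the members too, and a link at this distance was not tested. Among the lowest regions, an intron of Plxdc1 (chr11:97944646-97945656) was at 4.38, 3.88, 9.02, 9.27 and 6.01 CPM in members against 24.7 to 43.4 and 28.8 to 45.2 CPM, and differed by -2.38 ± 0.16 and -2.38 ± 0.17 (adjusted p = 6.83e-19 and 3.63e-18). The other regions named by their p-value are given by their nearest protein-coding start, which lay from 3645 (Itsn1) to 825982 bases (Ddx18) away. Those of Cd6, Itih5, Tomm20, Itsn1, Pdcd6ip, Tbc1d22a and Dusp10 were higher. Those of Ddx18 and Pik3r1 and one in an intron of Atp8b1 were lower. Against the class that named them, these regions ranged from 1.86 to 3.72 on the higher side and from -3.82 to -2.53 on the lower side. Links between these regions and the genes were not tested. None of the calls in this paragraph was lost when 1 library was left out.

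The 3 motifs were counted in all promoter windows. The NEUROD-type E-box CAGATGG was in 4.44% of all 32851 promoter windows of 250 bases, in 3.51% of 14884 windows over a tested region, in 9.87% (15 of 152) of windows over a region higher than in both classes and in 8.57% (24 of 280) of those over a region lower than in both. The T-box core GGTGTGA was in 3.33%, 2.63%, 3.95% and 4.64% of the same sets, and the forkhead motif TGTTTAC in 3.17%, 2.04%, 0% and 3.21%. Gm41414 and Gm40395 each hold 1 E-box, and the windows of Hs3st4, Dock9, Gm39471 and Dmrt2 hold none, so the printed windows are no sample of how often the E-box occurs. The region over the Gm40395 start differed by 3.01 from Tshz2 nuclei (adjusted p = 2.24e-13) and 1.81 from Rorb nuclei (adjusted p = 1.59e-07), that over Gm41414 by 1.61 and 1.49 (adjusted p = 1.96e-09 and 3.94e-08) that over Gm39471 by 2.18 and 2.26 (adjusted p = 9.6e-09 and 1.41e-08) and that over Dock9 by 1.27 and 1.34 (adjusted p = 2.52e-09 and 1.98e-09). A match describes letters in the window and no binding. Windows were searched without masking repeats, and whether a match lies in a repeat was not checked.

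In the comparison of libraries, the targeted gene comes first. Mgll stood at 87.8, 102, 115, 103 and 93.5 CPM in the members and at 99.6, 113, 122, 117 and 112 in the retained nuclei. The 95% exact Poisson intervals of the members were [81.0, 95], [93.8, 111], [107, 123], [95.3, 111] and [87.9, 99.2] CPM. It was at 68.8, 69.1, 89.8, 91.1 and 72.2 CPM in Tshz2 nuclei and 112, 96.3, 116, 136 and 90.4 in Rorb nuclei. The interval of every knockout library overlapped that of 5xFAD, so the UMIs of Mgll did not check the knockout labels, and each of these libraries is called by its label below. Thy1 was at 42.3, 142, 171, 203 and 141 CPM in the members and 48.9, 129.7, 139, 170.0 and 125 in the retained nuclei. The 4 libraries labelled 5xFAD lay above wild type, and in retained nuclei the intervals were [118, 143] in 5xFAD and [40.9, 58.0] in wild type. App was at 514 to 595 CPM in the members, counted against the mouse genome.

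The libraries also differed in make-up. Among members called by sex-linked RNA, Xist nuclei made up 60.6%, 37.7%, 53.3%, 81.7% and 59.8%, and 21.3%, 11.3%, 16.2%, 13.8% and 20.5% of members had both kinds. The knockout comparisons all use the 5xFAD library, so a value particular to that library enters each of them. The past-fold counts below are of genes with at least 200 UMIs in the 2 libraries and a log2 ratio of at least 0.5 either way.

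Between 5xFAD and wild type few genes were past this fold in the members: 47 of 6572 genes (0.715%) were higher in the library labelled 5xFAD and 76 (1.16%) lower, and in retained nuclei 46 of 4114 (1.12%) were higher and 24 (0.583%) lower. Thy1, whose promoter drives the transgenes, had a log2 ratio of 1.64 in members and 1.32 in the retained nuclei, and 1.62 and 1.06 in Tshz2 and Rorb nuclei. Nxph1 was at 172, 399.8, 131, 122 and 114 CPM in members and 127, 307, 71.8, 79.2 and 90.0 in the retained nuclei, highest in the library labelled 5xFAD. Its level was highest in sub-clusters 10 (4247 CPM) and 6 (762), and sub-cluster 6 had its highest share in that library. Within sub-cluster 1 it had 3, 1, 6 and 1 UMIs in the wild type, 5xFAD, astrocyte and neuron libraries, too few to compare. The part of the sub-clusters in the result was not tested.

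Rarb, a retinoic acid receptor, was at 8.91, 54.9, 11.9, 9.43 and 18.3 CPM in the members and at 4.44, 7.70, 4.10, 2.09 and 8.83 in the retained nuclei, and Sox2ot differed by 1.09 in members and -0.89 in retained nuclei (10 UMIs against 27). The ratio of Rarb was 2.11 in members and 0.43 in retained nuclei (25 UMIs against 12), and Rarb was highest in sub-cluster 8 (129 CPM), which was set aside. Sdk1, an adhesion gene, was at 230.2, 129, 231, 190.3 and 233 CPM, with a ratio of -0.82 in members and -1.30 in the retained nuclei, and sub-cluster 5 held it at 764 CPM. Ttn had a ratio of -2.02, but 0.63 among nuclei with Y-linked RNA alone, and Pappa2 had -0.83 against 1.34. Sorcs1 (0.96), Eps8 (0.89), Cpne7 (-0.87), Palmd (-0.81) and Trps1 (-0.77) complete the named genes, and their retained ratios were 0.03, 0.33, -0.55, -0.56 and -0.03. Of the corticothalamic genes with enough UMIs 8 of 8 were higher, with a median of 0.22 (0.14 in retained nuclei), where that of all genes was 0.02. The share of all genes that were higher by any size is not given here. Of the members, 30.9% were set aside in 5xFAD and 40.4% in wild type. The corticothalamic-like sub-cluster 9 took 12.8% and 9.36% of their retained nuclei. The part of this make-up in the result was not tested.

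In the library labelled astrocyte MAGL-KO, 427 of 7023 genes (6.08%) were higher than in 5xFAD and 126 (1.79%) lower. With median-of-ratios scaling in place of CPM the numbers were 199 and 286, and the median of all genes moved from 0.08 to -0.07. In retained nuclei 281 of 4657 (6.03%) were higher and 103 (2.21%) lower. The unannotated transcript AC149090.1 was at 292, 236, 675, 664 and 447 CPM, a ratio of 1.50 in members and 1.54 in retained nuclei, and 1.42 and 1.42 in the other classes. Cfap54 was at 126, 113, 43.2, 44.0 and 54.3 CPM, a ratio of -1.29 in members and -1.47 and -1.64 in Tshz2 and Rorb nuclei. Both differences were thus present in 3 classes of nuclei. Gapdh, a glycolytic enzyme, was at 21.1, 23.9, 58.4, 43.0 and 26.5 CPM, and its ratio was 1.13 in members and 1.17 in the retained nuclei.

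Htr2a, a serotonin receptor, had a ratio of 1.24 in the members and 1.32 in the retained nuclei of the library labelled astrocyte MAGL-KO, 0.00 in Tshz2 nuclei and 1.12 in Rorb nuclei. Layer 6b genes had a median of 0.95, and 0.90 in retained nuclei, where that of all genes was 0.08, and 2 of 3 were past the fold, as 6.08% of all genes were on the higher side: Ccn2 was at 42.9 CPM against 19.8 in 5xFAD and Moxd1 at 30.1 against 12.2. The layer 6b-like sub-cluster 5 made up 15.3% of retained nuclei there and 9.23% in 5xFAD, and its part in the result was not tested. Nxph1 (-1.57), Kcnh8 (-1.41), Rarb (-1.83), Enpp2 (-1.49) and Pcdh11x (-1.20) were, with Cfap54 above, the genes named for low ratios, and Ptgds (1.92), Cpne7 (1.19) and Zfp46 (1.14) were among the highest. In retained nuclei Nxph1 was at -2.02, Kcnh8 at -1.73, Cpne7 at 1.35 and Zfp46 at 1.10, while Rarb was at -0.48, Enpp2 at -0.33, Pcdh11x at -0.60 and Ptgds at 0.47. Among members with Xist and those with Y-linked RNA, Ptgds was at 3.10 and 0.08, Cpne7 at 0.38 and 2.03, Nxph1 at -0.54 and -2.11 and Kcnh8 at -0.49 and -1.74. In retained nuclei these pairs were 0.04 and 0.69, 1.15 and 1.22, -2.21 and -1.83, and -0.89 and -1.69. The direction between the sexes thus held for Cpne7 and Kcnh8, by less, and turned for Ptgds and Nxph1. Among the retained sub-clusters, Kcnh8 and Nxph1 were highest in sub-cluster 6. It held 9.68% of retained nuclei in the astrocyte MAGL-KO library and 19.0% in 5xFAD. In Tshz2 and Rorb nuclei the ratios were 0.06 and 0.05 for Kcnh8 and -0.27 and 0.65 for Nxph1. The part of sub-cluster 6 in the result was not tested.

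The neuron MAGL-KO library had 361 of 6702 genes (5.39%) higher than 5xFAD and 114 (1.70%) lower. With median-of-ratios scaling they were 162 and 275, and the median of all genes moved from 0.07 to -0.09. In retained nuclei 219 of 4356 (5.03%) were higher and 108 (2.48%) lower. Spock1, a matrix proteoglycan of neurons, was at 346, 323, 349, 120.0 and 406 CPM, a ratio of -1.39 in members, -1.27 in retained nuclei and -1.91 and -2.03 in Tshz2 and Rorb nuclei. The low level was found in this library alone among the 5, in members and in all other nuclei (315, 317, 316, 111 and 347 CPM). Its ratio was -1.06 among members with Xist and -4.50 among those with Y-linked RNA. Of the latter this library held 42, of which 34 were retained. AC149090.1 (1.47), Ptgds (1.71), Inhba (1.22), Cpne7 (1.21), Ppp1r1a (1.15) and C1ql3 (1.14) were highest, with 1.54, 0.68, 0.59, 1.54, 0.86 and 0.94 in retained nuclei. Rarb (-2.05), Nxph1 (-1.67), Cfap54 (-1.26), Pcdh11x (-1.23) and Kcnh8 (-1.20) were lowest, with -0.84, -1.89, -1.34, -1.08 and -1.03 in retained nuclei. Some of these ratios also differed by sex, and Xist nuclei were 81.7% in this library and 37.7% in 5xFAD. Among members with Xist and those with Y-linked RNA, Kcnh8 was at -0.02 and -1.17 (0.23 and -2.50 in retained nuclei), Inhba at 1.35 and 0.14 and C1ql3 at 1.42 and 0.39.

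Set against 5xFAD, the library labelled global MAGL-KO had a more even split: 204 of 7573 genes (2.69%) were higher and 185 (2.44%) lower, and in retained nuclei 161 of 4802 (3.35%) and 135 (2.81%). Htr2a was at 24.8, 12.3, 38.4, 31.8 and 61.8 CPM in the retained nuclei of the 5 libraries. The global MAGL-KO value had an interval of [54.5, 69.8] and the 5xFAD value one of [8.81, 16.8], and the ratio was 1.95 (1.57 in all members) against 0.12 in Tshz2 and 0.12 in Rorb nuclei. Sema3c was at 23.2, 13.7, 29.5, 29.9 and 39.7 CPM and Nmbr at 4.38, 4.50, 16.5, 13.8 and 17.3 CPM, with ratios of 1.26 and 1.23. All 3 genes had their highest level in sub-cluster 13 among the retained sub-clusters. That sub-cluster held 11.9% of retained nuclei in this library and 1.03% in 5xFAD. Within sub-cluster 1 the ratios were -0.41 for Htr2a (10 UMIs against 12), 0.26 for Sema3c (66 against 44) and 0.65 for Nmbr (20 against 9), all from few UMIs. The part of sub-cluster 13 in the result was not tested.

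Mthfs, a folate enzyme, was at 33.9, 30.6, 29.7, 37.4 and 91.4 CPM, a ratio of 1.44 in members and of 1.15 and 1.50 in the other classes. Dcn, a small proteoglycan, was at 24.6 CPM against 2.88 in 5xFAD, and Cpne7 at 79.3 against 25.2. Their ratios were 1.91 and 1.48, and 1.72 and 1.44 in retained nuclei. The ratio of Dcn was 2.24 among members with Xist and 0.42 among those with Y-linked RNA (2.11 and 0.47 in retained nuclei), and Xist nuclei were 59.8% in this library and 37.7% in 5xFAD, whose part in the result was not tested. Adgrd1 (-1.42), Pcdh11x (-1.38), Rarb (-1.36), Kcnh8 (-1.32), Enpp2 (-1.28) and Sox6 (-1.26) were lowest, and in retained nuclei they were at -1.11, -0.95, 0.12 (37 UMIs against 25), -1.19, -0.71 and -0.04, the last from 2 UMIs against 2, too few to compare. Of the corticothalamic genes 8 of 8 were lower, with a median of -0.33 where that of all genes was 0.00, and 3 were past the fold, as 2.44% of all genes were on the lower side. In retained nuclei 5 of 8 were lower, with a median of -0.30. The make-up of the retained nuclei differed between global MAGL-KO and 5xFAD, with 20.1% and 9.23% in sub-cluster 5 and 10.4% and 19.0% in sub-cluster 6. Sub-cluster 9 held 6.69% and 12.8%, and sub-cluster 13 held 11.9% and 1.03%. Among the retained sub-clusters, Kcnh8 (450.4 CPM) and Adgrd1 (91.3 CPM) were highest in sub-cluster 6. In Tshz2 and Rorb nuclei the ratios were 0.15 and 0.16 for Kcnh8 and 0.19 and -0.04 for Adgrd1. The part of the make-up in these results was not tested.

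Among the immediate early genes Homer1, Nr4a3 and Nr4a1 were lower in the 3 knockout libraries than in 5xFAD. Homer1 was at 679, 689, 340.4, 355 and 382 CPM in members and 742, 838, 346, 380.4 and 412 in the retained nuclei. Nr4a3 was at 59.4, 53.5, 24.0, 26.4 and 28.1 CPM and Nr4a1 at 50.6, 52.6, 31.7, 31.4 and 31.6 CPM in members. For these 3 genes the wild type and 5xFAD libraries lay above the 3 knockout libraries, and the intervals of Homer1 in members were [668, 712] CPM in 5xFAD and [327, 354], [340.3, 369.7] and [371, 394] in the knockouts. Few of the 17 listed genes had enough UMIs: 3 of 5, 3 of 4 and 3 of 5 were past the fold on the lower side in the astrocyte, neuron and global MAGL-KO libraries, in that order, where 1.79%, 1.70% and 2.44% of all genes were, with medians of -0.65, -0.78 and -0.65, and -0.70, -0.94 and -0.82 in retained nuclei. Among members with Y-linked RNA the medians were -0.33, -0.16 and -0.59, and among those with Xist -0.88, -0.96 and -1.08. Bdnf, a neurotrophin gene of the same list, was at 26.6, 17.3, 27.1, 25.9 and 35.0 CPM, with ratios of 0.53, 0.47 and 0.84 in members and -0.24, 0.21 and 0.31 in retained nuclei. Homer1 was at 489, 456, 286, 312 and 340.3 CPM in Tshz2 nuclei and 1132, 1002, 483, 530.4 and 970.1 in Rorb nuclei. In the corticothalamic-like sub-cluster 9, where Homer1 was highest, the counts of nuclei were 16, 25, 18, 14 and 18, or 9.36%, 12.8%, 7.26%, 8.43% and 6.69% of retained nuclei, lower in the 3 knockout libraries as Homer1 was, though with overlapping intervals, and its part in the result was not tested.

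Genes of the endocannabinoid system had a median of -0.09 in 5xFAD against wild type and of 0.20, 0.19 and 0.14 in the 3 knockout libraries against 5xFAD. With median-of-ratios scaling the medians of the astrocyte and neuron libraries were 0.04 and 0.03. The medians of all genes moved as well, from 0.08 and 0.07 to -0.07 and -0.09. Cnr1, the main cannabinoid receptor of neurons, was at 46.0, 33.5, 55.2, 59.4 and 62.6 CPM in members, lowest in the library labelled 5xFAD, with ratios of 0.65, 0.74 and 0.81. Dagla, which makes 2-arachidonoylglycerol, was at 56.9 to 65.2 CPM. Nuclear-encoded respiratory chain genes were higher for 14 of 14 genes in the library labelled astrocyte MAGL-KO, with a median of 0.40 where that of all genes was 0.08, and 5 were past the fold, as 6.08% of all genes were on the higher side. They were higher in 13 of 14 in neuron MAGL-KO with a median of 0.20 (all genes 0.07), and in 6 of 14 in global MAGL-KO with -0.07 (all genes 0.00). With median-of-ratios scaling these were 13 of 14 with 0.24 and 11 of 14 with 0.05 for the first 2, where the medians of all genes were -0.07 and -0.09. Heparan sulfate synthesis genes had medians of 0.05 in 5xFAD against wild type and -0.04, -0.05 and 0.02 in the knockout libraries, with 0 of 16, 0 of 15 and 0 of 17 genes past the fold in the latter, where 6.08%, 5.39% and 2.69% of all genes were past it on the higher side and 1.79%, 1.70% and 2.44% on the lower, so that few of so short a list would be past it at the share of all genes. With median-of-ratios scaling the medians of the astrocyte and neuron libraries were -0.19 and -0.20 (all genes -0.07 and -0.09). On the lower side 2 and 1 genes were then past the fold. In 5xFAD against wild type 1 of 15, Ndst4, was past it, at 118, 50.6, 49.3, 67.2 and 57.7 CPM in members and 2.22, 4.31, 1.46, 1.74 and 0.716 in retained nuclei.

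**Figure D5:**
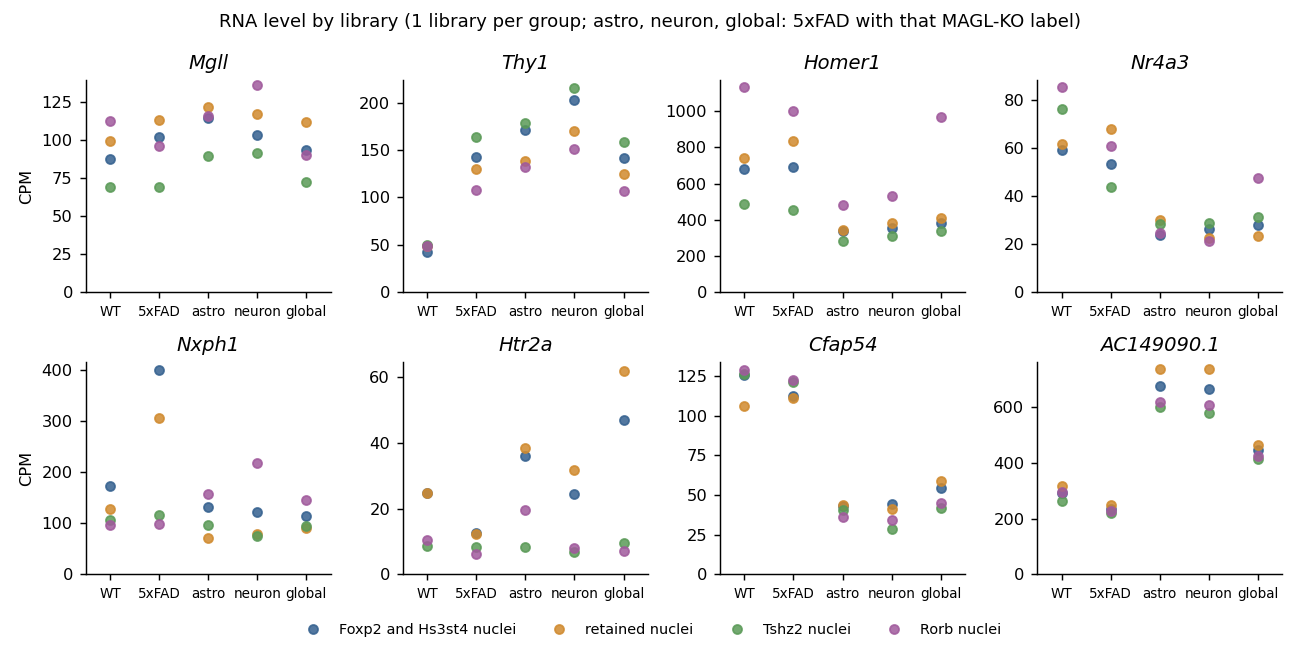
RNA level in CPM (y axes from 0) of 8 genes in the 5 libraries (x axes) for all Foxp2 and Hs3st4 nuclei, the retained ones, Tshz2 nuclei and Rorb nuclei, each point being 1 sum of UMIs. Mgll of the members lies between 87.8 and 115 CPM in all 5 libraries, Thy1 is lowest in wild type, and Homer1 and Nr4a3 of the members are lower in the 3 knockout libraries than in wild type and 5xFAD.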

How the data were processed

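RNA and transposase cut sites were measured in the same nuclei of 5 mouse hippocampus libraries. The values are raw counts per gene or peak and nucleus as the authors deposited them, with no normalization. Reads were processed with Cell Ranger ARC 2.0.0 and Seurat on mm10, per the submitters' processing notes; the parameters are not given in the sources used here. Peaks were listed separately in each library, so peaks overlapping by at least 1 bp were merged, and regions listed in all 5 libraries were used (129601 of 220604, of which 103361 passed edgeR's filter).

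RNA was summed per class and library, scaled to CPM and compared as log2(CPM + 5), without a test. Accessibility was tested on 15 sums of cut sites (3 classes in 5 libraries) with edgeR 4.0.16 (TMM, quasi-likelihood, library as block), since classes of 1 library come from the same preparation; deviations of members correlated at 0.04 to 0.14 with those of Tshz2 nuclei and at 0.01 to 0.11 with those of Rorb nuclei of the same library. On simulated counts, 83 and 82 of 100 regions changed by 2 log2 units were recovered against Tshz2 and Rorb nuclei, and 36 and 39 of 100 changed by 1. The simulation had no library effects and changed a far smaller share of regions than was called in the data (16.3% and 19.7%). These recoveries therefore do not give the power of the test on the data. Members were clustered again with scanpy 1.11.5 (30 components, 15 neighbours, Leiden resolution 0.6). Doublets were not removed. Scrublet scores and nuclei with both Xist and Y-linked RNA are used to describe them. A sub-cluster was set aside if at least 20% of its nuclei had both kinds of RNA or a glial or vascular list was raised. Raised means a mean log2 ratio to other nuclei of at least 1, with at least 3 genes at 1 or more. Lists of other neuron types were not used for this, and nothing was set aside from Tshz2 and Rorb nuclei.

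Named genes were all list genes, the 10 highest and 5 lowest against each class with the same sign in 5 libraries, and the 6 highest and 6 lowest in each library comparison with at least 200 UMIs; named regions were the 6 higher and 3 lower with the lowest p in each comparison and called regions within 2 kb of listed genes. The nuclei, lists and rules were chosen with earlier results of these data known. Alternatives were other scalings, pseudocounts, filters, score thresholds, thinning, nuclei of 1 sex, DESeq2 1.42.0 and leaving out each library. Some genes of the lists and named sets are not reported here.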

Additional observations from a re-analysis of the deposited data

How the results depend on the processing

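Shares of members by library were 6.62%, 6.54%, 7.73%, 7.86% and 7.78% with a score of at least 0.75, 4.73%, 4.86%, 5.43%, 5.54% and 5.50% with the higher of the planned score thresholds, 3.31%, 3.81%, 4.10%, 4.14% and 3.66% for the retained nuclei, and 6.25% and 6.27% in wild type and 5xFAD with at least 2000 genes. Genes past the fold numbered 123, 553, 475 and 389 in 5xFAD against wild type and in the astrocyte, neuron and global MAGL-KO libraries against 5xFAD. They numbered 52, 209, 199 and 196 with a pseudocount of 20, 271, 1149, 1084 and 628 with a filter of 50 UMIs, and 41, 197, 137 and 203 with nuclei thinned to 5000 UMIs. In the astrocyte comparison they were 322 with Xist nuclei and 235 with Y nuclei only, and in 5xFAD against wild type 70 with the retained nuclei.

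Signs turned for few ratios, and the cause was not tested. In 5xFAD against wild type these were Ndst4 (0.0156 with Xist nuclei, 0.37 in retained nuclei), Sorcs1 (-0.25), Ttn (0.63) and Pappa2 (1.34) with Y nuclei, and Sox2ot (-0.89), Gpc3 (0.18) and Gpc4 (0.41) in retained nuclei. In the knockout comparisons they were Bdnf (-0.24) and Gpc4 (-0.21) in retained nuclei of the astrocyte library, Gpc4 (-1.27) with Y nuclei of the neuron library, and in the global library Rarb (0.0118 with Y nuclei, 0.12 retained), Gpc4 (-0.00199 retained) and the oligodendrocyte median (0.34 with Xist nuclei, 0.0253 retained).

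Called regions numbered 16818 and 20396 against Tshz2 and Rorb nuclei, 15630 and 19379 without the replicate block, 17114 and 21047 with DESeq2, 22444 and 24714 with retained nuclei, and 12605 to 13737 and 15396 to 17165 without 1 library. Of 203 results on named regions, 85 lost the call under at least 1 setting and 0 reversed. No paired analysis was possible because, for the comparisons between libraries, there is a single library per group; the accessibility test between classes is paired by library. The depth of 268 to 479 members in a library left many genes under 200 UMIs in the members, and these were not counted; ratios of named genes in retained nuclei, in nuclei of 1 sex or within a sub-cluster can rest on far fewer UMIs.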

Other observations

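Genes of the glutamatergic synapse were mixed in the Foxp2 and Hs3st4 nuclei. Of 26 listed genes, 12 were higher and 7 lower in all 5 libraries than in Tshz2 nuclei, with a median of 0.09, and 9 were higher and 8 lower than in Rorb nuclei. Of all genes 19.9% were higher and 15.6% lower than in Tshz2 nuclei in all 5 libraries, and 22.3% and 14.6% than in Rorb nuclei. In the retained nuclei 10 were higher and 10 lower than in Tshz2 nuclei, with a median of -0.03, and 9 higher and 11 lower than in Rorb nuclei, with -0.17. Gria4, an AMPA receptor subunit, was at 462 to 585 CPM against 841 to 962 in Tshz2 nuclei and 1016 to 1624 in Rorb nuclei. Grik1, a kainate receptor subunit, was at 92.2, 92.2, 60.7, 57.8 and 56.9 CPM in the members, with the 3 knockout libraries below wild type and 5xFAD. Slc17a6, the vesicular glutamate transporter common in thalamus and subiculum, was at 6.94 to 15.1 CPM in members against 36.2 to 52.1 and 30.9 to 47.3 CPM.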
